A study of Mus musculus with 16 samples.

Results

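Accessible chromatin was examined around 9 genes of spermatogonial stem cell self-renewal: *Gfra1*, *Ret*, *Etv5*, *Bcl6b*, *Lhx1*, *Id4*, *Zbtb16*, *Sall4* and *Foxo1*, of 21900 protein-coding genes in the gene table. The genes were listed by name, and every ATAC-seq peak within the bounds of a gene or within 20 kb on either side of them was taken. ATAC-seq maps DNA that a transposase can reach, and the submitters gave the result as lists of peak positions. The cells were male germ cells of the testis from Mvh-Venus transgenic mice, a reporter strain shared by all groups, that were either *Morc1* (+/-) or *Morc1* (-/-), called heterozygous and knockout here. Collection was in the embryo at E13.5 and E16.5 (days of gestation) and after birth on days 0 and 3, written P0 and P3. Each of the 8 combinations of stage and genotype has 2 samples. No *Morc1* (+/+) group was analysed here, so the heterozygote is the control throughout. MORC1 is a chromatin ATPase that takes part in transposon silencing in the male germ line.

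Spermatogonial stem cells descend from gonocytes, fetal and neonatal male germ cells that stop dividing before birth and resume afterwards. Stem cell maintenance depends on GDNF, a growth factor secreted by somatic cells of the testis, which binds the co-receptor GFRA1 and signals through the receptor tyrosine kinase RET. The transcription factor genes *Etv5*, *Bcl6b* and *Lhx1* are induced by GDNF in cultured stem cells. *Id4*, *Zbtb16* (the gene of PLZF), *Sall4* and *Foxo1* encode further nuclear regulators of the undifferentiated state.

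Each list stands for a whole group, gives positions without a height, score or read count, and carries no replicate. No value below therefore has a spread between samples, and no test of stage or genotype was possible. The read depth is unknown, and a peak that is missing from a list may lie under the unstated threshold. In bulk samples, fewer cells with a site accessible and less access per cell cannot be told apart. The P0 list was identical row by row in both genotypes, and so was the P3 list, which leaves 6 distinct lists and no genotype comparison after birth. The lists held 39559 to 67258 peaks. As a check of the cell type, 5 of 8 germ cell markers (*Ddx4*, *Dazl*, *Mael*, *Dnd1* and *Sycp3*) had a peak within 1000 bp of a start in all 6 lists. Over all protein-coding genes this share was 54%, so the germ cell count alone does not identify the cell type. Of the other germ cell markers, *Nanos3* had such a peak in the E13.5 knockout list alone, *Dppa4* at P0 alone and *Tdrd1* in no list. In any list, 0 of 5 Leydig cell markers and 0 of 2 blood markers had one. Of 6 Sertoli cell markers, *Cldn11* had such a peak in 6 lists and *Wt1* in 5, and *Sox9*, *Amh*, *Dhh* and *Gata4* had none. Of 4 peritubular and endothelial markers, *Myh11* had it in 6 lists and *Acta2* at P0 and P3. The part of other cell types in the results was not tested.

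Peaks of different lists that shared at least 1 bp were joined into 1 region. The 9 windows held 48 regions, 24 inside the gene bounds and 24 outside. The number per gene ran from 3 at *Id4* to 11 at *Gfra1*, whose window is the longest at 260 kb. Per 100 kb of window the order was different: *Bcl6b* had 10.9 regions, *Lhx1* 8.41 and *Etv5* 7.12, followed by *Sall4* (6.79), *Id4* (6.68), *Ret* (4.65), *Gfra1* (4.22), *Foxo1* (3.28) and *Zbtb16* (2.67). In all, 10 regions occurred in all 6 lists and 17 in 1 list.

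**Figure D1:**
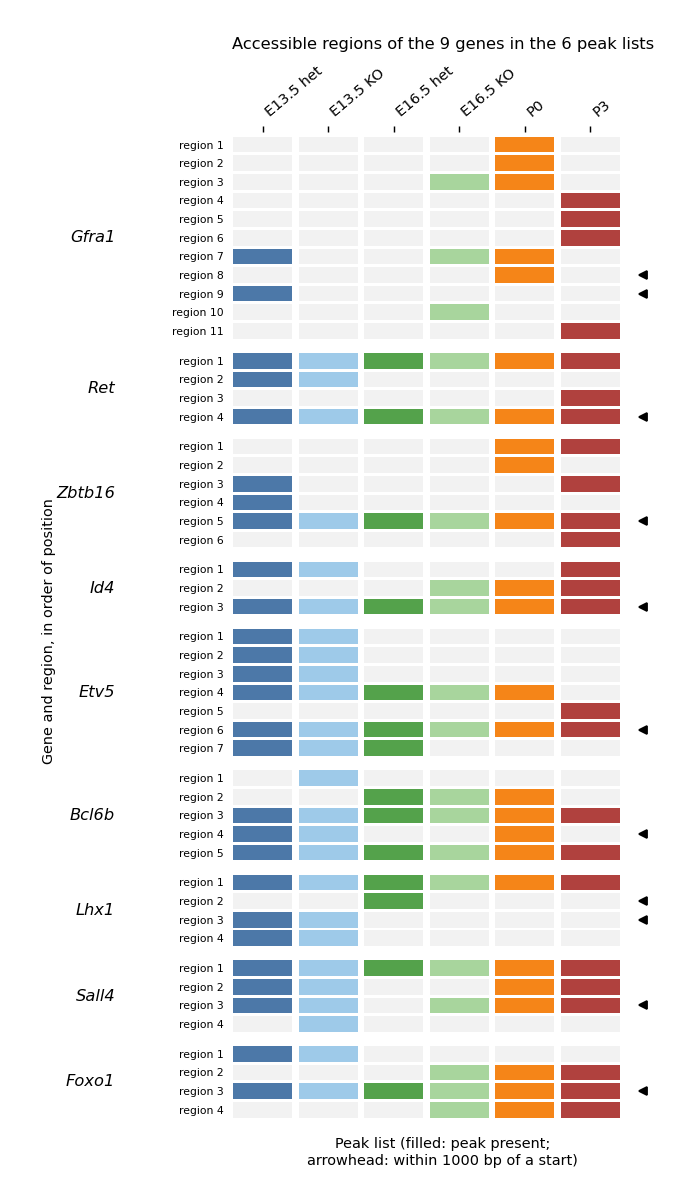
Presence of each of the 48 regions (rows, numbered within each gene by position) in the 6 peak lists (columns; het, heterozygous; KO, knockout). A filled cell means that the list holds a peak there, and an arrowhead marks a region within 1000 bp of a start (of either outer gene end for *Ret*, *Zbtb16*, *Bcl6b* and *Sall4*). The start regions of *Ret*, *Zbtb16*, *Id4*, *Etv5* and *Foxo1* are filled in all 6 columns, whereas no *Gfra1* region is.

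The genes split by what was found at their starts. A start was the RefSeq transcription start where the promoter table gives one (5 of the 9 genes) and otherwise either outer end of the gene. *Ret*, *Etv5*, *Id4*, *Zbtb16* and *Foxo1* had a start peak in every list, as 54% of protein-coding genes did. *Gfra1*, *Bcl6b*, *Lhx1* and *Sall4* had one in some lists and not in others. All 9 genes had a start peak in the E13.5 heterozygous list and 8 in the E13.5 knockout list, where 60.1% and 60.6% of protein-coding genes had one. At E16.5 the count was 6 in heterozygous cells (61.1% of protein-coding genes) and 6 in knockout cells (62.0%). It was 8 at P0 (63.8%) and 6 at P3 (59.4%). With a start window of 500 bp the count was 8 in both E13.5 lists and 6 in each of the 4 later ones, P0 included. Within 1000 bp, the lower counts at E16.5 and P3 came from *Gfra1*, *Bcl6b*, *Lhx1* and *Sall4*, while the share over all protein-coding genes stayed between 59.4% and 63.8%.

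The bases just upstream of 5 starts are shown, because only these 5 genes have an entry in the promoter table. They include both kinds of pattern. Each run gives the 250 bases before the RefSeq start (GRCm38.p6), read 5′ to 3′ in the direction of transcription. Capitals mark the letters GGGCGG (the GC box), CCGGAA (the ETS core), TGTTTAC (a forkhead motif) and CCAAT, found on either strand. The octamer ATGCAAAT, the CRE TGACGTCA, the E-box CACGTG and the STAT motif TTCCNGGAA were also searched and do not occur in these windows.
*Etv5* (chr16:22439571-22439820, minus strand): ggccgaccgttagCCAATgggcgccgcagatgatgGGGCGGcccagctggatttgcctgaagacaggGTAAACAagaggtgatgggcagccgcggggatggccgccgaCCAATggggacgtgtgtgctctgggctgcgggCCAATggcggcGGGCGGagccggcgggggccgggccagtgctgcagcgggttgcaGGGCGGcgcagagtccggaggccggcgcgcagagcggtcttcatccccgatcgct
*Id4* (chr13:48260866-48261115, plus strand): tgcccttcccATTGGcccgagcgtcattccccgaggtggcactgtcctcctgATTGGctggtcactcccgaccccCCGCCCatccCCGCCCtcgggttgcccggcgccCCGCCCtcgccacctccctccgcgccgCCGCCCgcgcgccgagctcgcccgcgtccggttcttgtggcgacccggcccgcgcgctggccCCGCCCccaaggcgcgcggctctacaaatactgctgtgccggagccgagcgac
*Foxo1* (chr3:52268087-52268336, plus strand): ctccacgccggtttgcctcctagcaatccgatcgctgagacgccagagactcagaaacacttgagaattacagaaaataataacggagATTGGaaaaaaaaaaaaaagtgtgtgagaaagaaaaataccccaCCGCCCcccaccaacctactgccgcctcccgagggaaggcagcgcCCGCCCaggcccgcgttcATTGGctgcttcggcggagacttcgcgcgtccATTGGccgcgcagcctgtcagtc
*Lhx1* (chr11:84525535-84525784, minus strand): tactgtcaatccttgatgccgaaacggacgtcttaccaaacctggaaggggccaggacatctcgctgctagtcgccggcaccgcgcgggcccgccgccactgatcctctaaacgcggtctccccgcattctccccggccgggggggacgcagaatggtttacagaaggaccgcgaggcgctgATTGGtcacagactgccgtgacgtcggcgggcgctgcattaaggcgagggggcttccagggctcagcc
*Gfra1* (chr19:58455399-58455648, minus strand): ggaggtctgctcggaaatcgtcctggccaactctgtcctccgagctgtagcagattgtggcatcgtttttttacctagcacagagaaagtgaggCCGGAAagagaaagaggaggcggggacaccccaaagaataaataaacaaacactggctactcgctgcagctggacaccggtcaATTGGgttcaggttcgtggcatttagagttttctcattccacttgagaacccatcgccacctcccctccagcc

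The *Etv5* and *Id4* windows lay inside a peak over all 250 bases in all 6 lists. The *Foxo1* window did so in 5 lists and over 216 bases at P0. The *Lhx1* window was covered over 250 bases in the E16.5 heterozygous list and over 0 bases in the other 5. For *Gfra1*, the E13.5 heterozygous peak covered the 78 bases farthest from the start, and no other list covered any; this window lies inside the outer bounds of the gene. GC content was 75.6% for *Id4*, 71.2% for *Etv5*, 64.8% for *Lhx1*, 56% for *Foxo1* and 52.4% for *Gfra1*, against a median of 52.4% over 32851 promoters of the same length. Over the 21263 promoters of protein-coding genes the median was 55.6%, near *Foxo1* and above *Gfra1*. The ratio of observed to expected CpG was 1.05 for *Id4*, 1.04 for *Foxo1*, 0.991 for *Lhx1*, 0.897 for *Etv5* and 0.583 for *Gfra1* (median 0.373, and 0.53 for protein-coding genes). The GC box occurred 5 times before *Id4*, 3 times before *Etv5*, 2 times before *Foxo1* and 0 times before *Lhx1* and *Gfra1*. It is held by 32.7% of all promoters and 42.6% of those of protein-coding genes. All 5 windows hold CCAAT on 1 strand or the other, as 33.8% of promoters do. The ETS core was found in the *Gfra1* window alone (12% of promoters) and the forkhead letters in that of *Etv5* alone (3.17%). The palindromic CRE and E-box letters are held by 1.55% and 6.02% of promoters, the octamer by 1.6% and the STAT motif by 0.913%; a match of CCGGAA and of TTCCNGGAA can share bases. These letter matches describe the windows and do not show binding. A further *Etv5* start in the table, at 22438368, had 0 of its 250 upstream bases in a peak of any list.

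*Gfra1* (chr19:58235581-58455946), the GDNF co-receptor gene, had 11 regions, none in more than 3 lists. At E13.5 the heterozygous list held 2 of them and the knockout list 0. At E16.5 the heterozygous list held 0 and the knockout list 3. After birth 5 were listed at P0 and 4 at P3. The 260 kb window was thus without any peak in 2 of the 6 lists, while the P0 and P3 lists held the most and had no *Gfra1* region in common. At the start, E13.5 heterozygous cells had a peak at chr19:58455571-58456071, and P0 had a different one inside the gene at chr19:58454292-58454792, 606 bp from the start. With a window of 500 bp the P0 peak no longer counted. A region 6.8 kb into the gene (chr19:58448340-58448861) was common to heterozygous cells of E13.5, knockout cells of E16.5, and P0.

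The 4 *Gfra1* peaks of P3 lay at chr19:58430139-58430639, chr19:58418162-58418662 and chr19:58406668-58407168, which are 25, 37 and 48.5 kb into the gene, and at chr19:58474332-58474832, 19.2 kb upstream of the start. Each was in the P3 list alone. Chosen after its values were seen, this count was reached by 25 of 21900 protein-coding genes, *Gfra1* included, and all 25 were among the 873 genes at least as long as *Gfra1*. P0 added 2 regions beyond the far end of the gene, 6.86 and 15.3 kb from its bounds, that P3 did not have. A region 97 kb into the gene was listed in E16.5 knockout cells and at P0.

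*Ret* (chr6:118151748-118197744), which encodes the receptor that GFRA1 engages, had a different pattern. A peak near its upper outer end was present in all 6 lists, starting between 118196931 in E13.5 heterozygous cells and 118197163 at P3. Of its other regions, chr6:118179441-118180024 inside the gene was listed in both E13.5 genotypes and in no later list, and chr6:118189908-118190408 at P3 alone. The region 12.3 kb below the gene was in all 6 lists and lies at an outer end of the neighbouring gene *Csgalnact2*. The co-receptor and receptor genes therefore each had a P3-only peak inside the gene, but only *Ret* of these 2 had a start peak throughout.

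**Figure D2:**
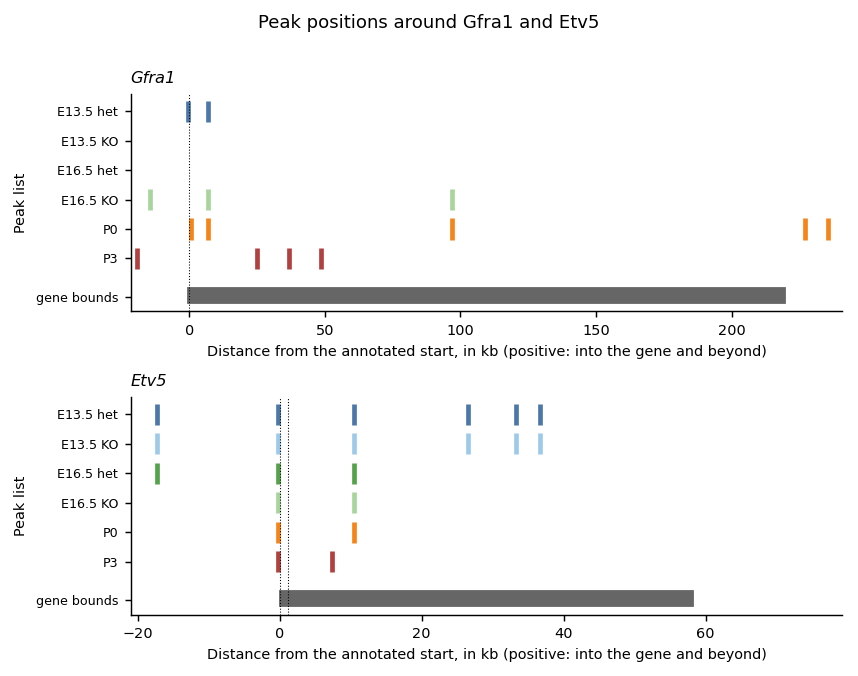
Positions of regions around *Gfra1* and *Etv5* in the 6 peak lists. The x axis is the distance from the annotated start in kb, positive into the gene, each tick is the centre of a region (its width is not to scale), dotted lines are annotated starts and the grey bar spans the gene bounds; the P3 ticks of *Gfra1* at 25, 37 and 48.5 kb and the E13.5 ticks of *Etv5* at 26.5, 33.3 and 36.7 kb have no counterpart in the other stages.

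*Etv5* (chr16:22381313-22439570), an ETS-family factor gene, had 7 regions, 6 of them already present at E13.5 in both genotypes. Of these, 3 lay 26.5, 33.3 and 36.7 kb into the gene (chr16:22412723-22413348, chr16:22405995-22406502 and chr16:22402596-22403118) and were in both E13.5 lists and in no list from E16.5 on. A region 10.4 kb into the gene persisted to P0 and was not listed at P3. At P3 a peak at chr16:22431928-22432428, 7.39 kb into the gene, was listed for the first time. The region 17.3 kb upstream was in both E13.5 lists and in E16.5 heterozygous cells. Having 3 or more regions in E13.5 lists alone is common, at 6.63% of protein-coding genes and 27.1% of those at least as long as *Etv5*.

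*Bcl6b* (chr11:70224127-70229798), a transcriptional repressor gene, lies among close neighbours. Its window had 5 regions, of which the 2 in all 6 lists lay by *Slc16a13* and at an outer end of 0610010K14Rik. The region nearest to *Bcl6b*, 470 bp above its upper end (chr11:70230268-70230908), was in both E13.5 lists, in neither E16.5 list, at P0 again and not at P3. With a window of 500 bp it counted in the E13.5 knockout list alone, where the peak lay closest. The remaining 2 regions lay near *Slc16a11*, 1 in the E13.5 knockout list and 1 at P0 and, before that, in both genotypes of E16.5. The first ends at 70214442 and the second starts at 70214540, and joining peaks within 500 bp makes them 1 region.

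*Lhx1* (chr11:84517975-84525534), a LIM-homeodomain factor gene, had its regions near the gene early. Peaks at chr11:84525856-84526386, 322 bp upstream, and at chr11:84533172-84533676, 7.64 kb upstream, were in both E13.5 lists and in no other. A separate peak over the start itself, chr11:84525316-84525816, was in E16.5 heterozygous cells alone. It ends just below the E13.5 region that starts at 84525856. Joining peaks within 500 bp makes them 1 region, so this may be a shifted peak and not a new site. The E16.5 knockout, P0 and P3 lists held nothing in the window but a region at an outer end of *Aatf*, which all 6 lists had. The *Lhx1* start regions overlap *Lhx1os*, so these peaks cannot be assigned to 1 of the 2 genes.

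*Sall4* (chr2:168748332-168767201), a zinc-finger factor gene expressed in undifferentiated germ cells, had 4 regions, all present at E13.5. The start region (chr2:168766892-168767419), which also overlaps Gm14261, was in every list except that of E16.5 heterozygous cells. A region inside the gene, 1497 bp from the upper end (chr2:168765036-168765704), was in both E13.5 lists, in neither E16.5 list, and at P0 and P3. The E16.5 heterozygous list thus held neither of them, and its single peak in the window belonged to a region 151 bp from an outer end of *Atp9a*. The last region, 13.1 kb above the gene, was in the E13.5 knockout list alone.

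*Id4* (chr13:48261116-48266028) encodes an inhibitor of basic helix-loop-helix factors. Besides its start region it had a region 15.4 kb upstream (chr13:48245416-48245966) in both E13.5 lists and again at P3. A region 6.02 kb upstream (chr13:48254758-48255431) was in the E16.5 knockout, P0 and P3 lists. Both, like the start region, overlap the gene A330033J07Rik, so the distance to *Id4* does not show which gene they belong to.

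*Foxo1* (chr3:52268337-52350109) encodes a forkhead factor downstream of growth-factor signalling. A region 14.1 kb upstream (chr3:52253959-52254499), which overlaps Gm30125, was in both E13.5 lists only. Regions 10.4 kb upstream (chr3:52257650-52258218) and 7.33 kb beyond the far end (chr3:52357439-52357950) were both in the E16.5 knockout, P0 and P3 lists, as at *Id4*. With *Id4*, this pattern made up 3 of 48 regions (6.25%), against 1.26% of regions around all protein-coding genes; it was chosen after the values were seen.

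*Zbtb16* (chr9:48651797-48836225), the PLZF gene, had a peak at its upper outer end in all 6 lists. Inside the gene, chr9:48740006-48740587 was in the E13.5 heterozygous and P3 lists and chr9:48760399-48760899 in the E13.5 heterozygous list alone. Below the gene, chr9:48635428-48635957 was in the P0 and P3 lists and chr9:48649309-48649809 in the P0 list alone. Above it, chr9:48848020-48848520 was in the P3 list alone. From E13.5 knockout through both E16.5 lists the start peak was the single peak in the 224 kb window.

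**Figure D3:**
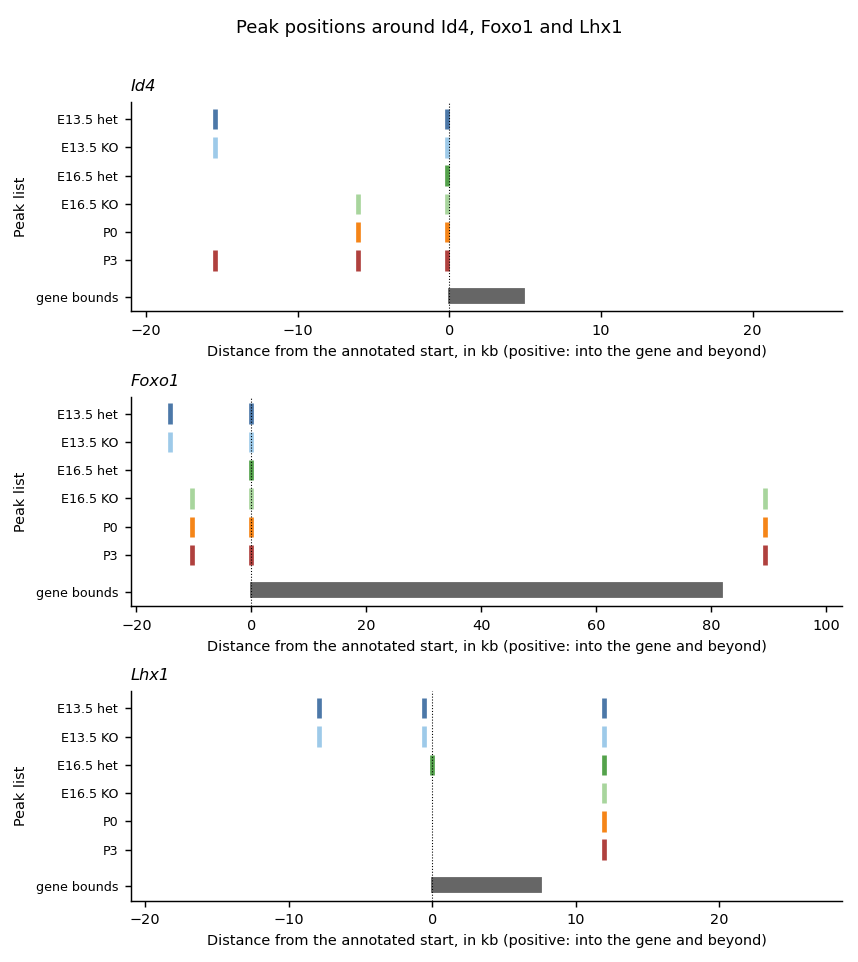
Positions of regions around *Id4*, *Foxo1* and *Lhx1* in the 6 peak lists, drawn as distance from the annotated start in kb (each tick is a region's centre and is not to scale; the grey bar spans the gene bounds). *Id4* at -6.02 kb and *Foxo1* at -10.4 and 89.4 kb show ticks in E16.5 knockout, P0 and P3 rows, and *Lhx1* has no tick at its start from the E16.5 knockout row on.

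By stage of first appearance, 29 of the 48 regions (60.4%, 95% Wilson interval 46.3 to 73) were first listed at E13.5 in either genotype and 7 at E16.5 (14.6%, 7.25 to 27.2). After birth, P0 added 5 (10.4%, 4.53 to 22.2) and P3 another 7 (14.6%, 7.25 to 27.2). The intervals cover counting over regions and nothing else. Over the 60581 regions around all protein-coding genes the shares were 59.4%, 26.3%, 11.0% and 3.25%, so the E13.5 and P0 shares were near the background. The E16.5 share was below the background, with an interval that includes it, and the share first listed at P3 was above it. Joining peaks within 500 bp merged regions at *Lhx1* and *Bcl6b* and left 5 of 46 first listed at E16.5 (10.9%, interval 4.73 to 23). No background was computed with that joining. With heterozygous lists only before birth, 9 of 45 regions (20%, interval 10.9 to 33.8) were first listed at P0. The background uses both genotypes, so it is no like comparison for that share. Of the 7 regions first listed at P3, 4 belonged to *Gfra1* and 1 each to *Ret*, *Etv5* and *Zbtb16*. Leaving out *Gfra1* gave 3 of 37 (8.11%, interval 2.8 to 21.3), an interval that includes the background of 3.25%. None of the 7 lay within 1000 bp of a start, and 5 lay inside the gene, whereas 9 of the 29 regions first listed at E13.5 were at a start.

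**Figure D4:**
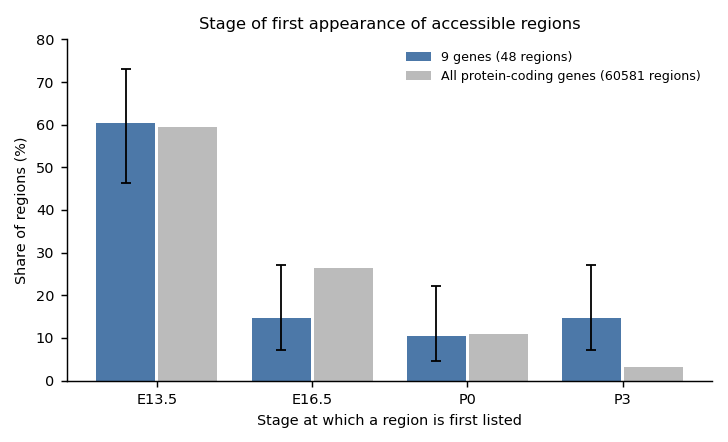
Share of regions (y axis, %) by the stage at which they are first listed (x axis), for the 48 regions of the 9 genes (blue, with 95% Wilson intervals over regions) and for the 60581 regions around all protein-coding genes (grey). The bars are close at E13.5 (60.4% and 59.4%) and apart at E16.5 (14.6% and 26.3%) and P3 (14.6% and 3.25%). The E16.5 interval includes the grey bar's value.

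Single lists held different shares of the 48 regions. The E13.5 heterozygous list held 27 (56.2%) and the E13.5 knockout list 25 (52.1%), against 50.8% and 50.4% of regions around all protein-coding genes. The E16.5 heterozygous list held 14 (29.2%, interval 18.2 to 43.2), against 52.3%, and the E16.5 knockout list 19 (39.6%, interval 27 to 53.7), against 55.6%. The P0 list held 25 (52.1%), against 59.2%, and the P3 list 25 (52.1%), against 46.3%. Both E16.5 lists, which are longer than those of E13.5, thus held fewer regions of these genes. Without *Gfra1* the heterozygous list held 37.8% of the remaining regions (24.1 to 53.9) and the knockout list 43.2% (28.7 to 59.1), and both intervals include the background. The knockout interval also included the background without *Zbtb16* (42.9%, 29.1 to 57.8) or *Etv5* (41.5%, 27.8 to 56.6). With gene bounds only, the knockout list held 37.5% (21.2 to 57.3). The background covers 20 kb on each side as well, so it is no like comparison for that share.

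Regions present in all lists were 10 of 48 (20.8%; 24.9% around all protein-coding genes). Of these, 5 were the start regions of *Ret*, *Etv5*, *Id4*, *Zbtb16* and *Foxo1*, and the other 5 lay outside the members' bounds, by neighbouring genes. Of the 29 regions listed at E13.5, 11 (37.9%; background 31.5%) were in no later list: 3 at *Etv5*, 2 at *Lhx1* and 1 each at *Gfra1*, *Ret*, *Zbtb16*, *Bcl6b*, *Sall4* and *Foxo1*. A further 4 (13.8%; background 5.88%), at *Zbtb16*, *Id4*, *Bcl6b* and *Sall4*, were missing from both E16.5 lists and listed again at P0 or P3, a pattern chosen after the values were seen. Joining peaks within 500 bp merges the *Bcl6b* region and 1 *Lhx1* region of the 11 with peaks of E16.5.

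The genotypes were compared at E13.5 and E16.5. At E13.5, 4 of 29 regions (13.8%; background 15.1%) were in the heterozygous list only: 2 at *Gfra1*, among them the start peak, and 2 inside *Zbtb16*. In the knockout list only were 2 (6.9%; background 14.6%), by *Bcl6b* and *Sall4*, neither at a start. The 23 regions held by both genotypes had peak centres a median of 22 bp apart. With gene bounds only, the heterozygous-only share was 4 of 16 (25%, interval 10.2 to 49.5) and the knockout-only share 0 of 16. The background includes 20 kb on each side, so it is no like comparison for these 2 shares.

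At E16.5, 2 of 21 regions (9.52%; background 12.4%) were in the heterozygous list only, at *Etv5* and *Lhx1*, and 7 (33.3%, interval 17.2 to 54.6; background 17.6%) in the knockout list only: 3 at *Gfra1*, 2 at *Foxo1* and 1 each at *Id4* and *Sall4*. Leaving out *Gfra1* gave 4 of 18 (22.2%). Of the 7 knockout-only regions, 6 were also in the P0 list (interval 48.7 to 97.4%, background 44.4%). The P0 list held 0 of the 2 heterozygous-only regions (0 to 65.8%, background 40.1%). It held 12 of the 12 regions of both genotypes (75.8 to 100%, background 86.2%). This comparison was not planned beforehand. Among the 6 are the 3 *Id4* and *Foxo1* regions of the E16.5 knockout, P0 and P3 pattern given above. Since the P0 list carries no genotype and the E16.5 knockout list is the longer of the pair, an effect of genotype and a difference in depth or threshold cannot be told apart.

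Related genes gave a comparison. Of 23 other genes of self-renewal or of GDNF and FGF signalling, 8 had a start peak in all 6 lists, 5 in none, and 10 in some. Over all protein-coding genes, 54% had a start peak in all 6 lists. By list, 16 of the 23 had it in E13.5 heterozygous cells and 14 in knockout cells, against 60.1% and 60.6% of protein-coding genes. At E16.5 these counts were 15 and 17, against 61.1% and 62.0%. After birth 11 had it at P0 and 10 at P3, against 63.8% and 59.4%. Among those that varied, *Lin28a*, an RNA-binding protein gene, had it in both E13.5 lists only, *T* in both E16.5 lists only, and *Mycn* in the 4 lists before birth. *Gdnf*, the ligand gene, had it in the E13.5 heterozygous and both E16.5 lists, and *Foxc2* in the E13.5 heterozygous and E16.5 knockout lists. *Shisa6* had it in E16.5 knockout cells and at P0. *Utf1* and *Gfra2* had it in every list but P3, and *Egr2* and *Dusp6* in every list but P0.

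The windows of these 23 genes held 111 regions, of which 64 were first listed at E13.5 (57.7%), 28 at E16.5 (25.2%) and, after birth, 15 at P0 and 4 at P3 (3.6%). Of 8 genes linked to differentiation, 4 had a start peak in E13.5 heterozygous cells and 6 in knockout cells. Both E16.5 lists gave 6, P0 gave 8 and P3 gave 7. Over all protein-coding genes the share with a start peak lay between 59.4% and 63.8% in each list. *Sohlh1* had it from E16.5 on, *Rarg* in every list but E13.5 heterozygous, *Neurog3* at P0 alone, and *Stra8* in the E13.5 knockout, P0 and P3 lists. The 48 regions of the 8 genes were first listed at P3 in 2.08% of cases, against 3.25% around all protein-coding genes. The differences between the gene lists were not tested.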

How the data were processed

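What the authors deposited are 8 peak lists that give chromosome, start and end and nothing else. Nearly all peaks are 501 bp wide. Per the submitters' processing notes, the build was mm10 (GRCm38) and the tools named were bcl2fastq 2.20, cutadapt 1.18, Bowtie2 2.3.4.1, deepTools 3.5.0 and HOMER 4.10. The threshold, the treatment of duplicate reads and the pooling of samples are not given in the sources used here. Groups came from the sample titles.

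From these positions, regions were built by joining peaks of the 6 distinct lists that shared at least 1 bp, and assigned to every gene whose RefSeq bounds plus 20 kb they touched. Starts came from the RefSeq promoter table (17492 of 21900 protein-coding genes, 5 of 9 members), otherwise both outer gene ends were used. *Ret*, *Zbtb16*, *Bcl6b* and *Sall4* have no promoter entry. The region nearest the 20 kb limit on the inside lay 18.4 kb from *Gfra1* (1 list, first at P3), and on the outside 22 kb from *Bcl6b* (5 lists, first at E13.5). By rule all members are named, and regions at starts, in all lists, in 1 genotype or first seen after birth may be given by position; the positions of other regions were added after their values were seen. The number of other protein-coding genes with the same counts and start pattern was 5 for *Ret* and 0 for each of the other 8. The genes and lists were chosen with earlier results of these data known. Counts were checked with bedtools 2.31.1 (54 of 54 equal). The joining was run on simulated peaks that overlapped widely within a site and lay far apart between sites. That run therefore says nothing on close or barely overlapping peaks. Wilson intervals are at 95%. Python 3.11.15 and scipy 1.17.1 were used.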

Additional observations from a re-analysis of the deposited data

Results flagged for a closer look

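The genotype contrast went opposite ways at the 2 fetal stages. Knockout-only minus heterozygous-only regions of the 9 genes came to -2 at E13.5 (2 against 4) and 5 at E16.5 (7 against 2). The regions around all protein-coding genes turned the same way, where E13.5 had 5246 knockout-only and 5450 heterozygous-only regions while E16.5 had 6779 and 4784, so the change of sign is not particular to these genes. Within *Gfra1*, the region that starts at 58448340 on chromosome 19 was in the heterozygous list only at E13.5 and in the knockout list only at E16.5. Whether the contrast differs between E13.5 and E16.5 was not tested, since no list has a replicate. The E13.5 heterozygous list is the longer of its pair (40448 against 39559 peaks), and so is the E16.5 knockout list (57117 against 53687). The part of list length in these counts was not tested.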

How the results depend on the processing

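No paired analysis was possible because the 2 samples of a group share 1 list, and leaving out replicates or raising the peak threshold was not possible for lists without scores. Shares were compared with the 95% interval of the reported one, and counts by a factor of 1.5. Of 238 recomputed values, 231 stayed within these limits and 7 moved. With gene bounds only, the number of regions was 24, the share first listed at P0 was 4.17% and the E13.5 knockout-only share was 0%. With 50 kb on each side there were 74 regions. Without regions inside another gene, the E16.5 heterozygous list held 18.2%. With heterozygous lists only before birth, 4.44% were first listed at E16.5, because the E16.5 knockout-only regions then count later or not at all. Leaving out *Gfra1*, an alternative chosen after seeing the data as was leaving out each other member, the E13.5 knockout list held 67.6%. These were the 7 that moved, and the shares given next stayed within the limits. The E13.5 heterozygous-only share was 25% with gene bounds only and 23.5% without regions inside another gene. The E16.5 heterozygous-only share was 14.7% with 50 kb on each side. With heterozygous lists only before birth, 20% were first listed at P0. Single members also set small shares: the share first listed at P0 was 5.41% and that of E13.5 heterozygous-only regions 7.41% without *Gfra1* (7.69% without *Zbtb16*), that of E13.5 knockout-only regions 4% without *Bcl6b* or without *Sall4*, and that of E16.5 heterozygous-only regions 5.56% without *Etv5* and 5.26% without *Lhx1*. Stricter or looser joining of peaks, and start windows of 500 or 2000 bp, moved none of the shares or counts beyond these limits, although with 500 bp P0 gave 6 genes with a start peak in place of 8. The unknown depth limits every statement on a missing peak.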
